A study of Mus musculus with 12 samples.

Results

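Listed methylation differences were examined at the 9 genes that write, maintain and remove DNA methylation: Tet1, Tet2, Tet3, Dnmt1, Dnmt3a, Dnmt3b, Dnmt3l, Uhrf1 and Tdg, out of 22238 protein-coding genes of the annotation. Reduced representation bisulfite sequencing (RRBS), which reads cytosine methylation near the ends of short restriction fragments, was done in undifferentiated mouse embryonic stem cells (ESCs). The 12 clones were 3 Tet1-/-, 2 Tet2-/-, 2 DKO (Tet1-/-:Tet2-/-), 2 TKO (Tet1-/-:Tet2-/-:Tet3-/-) and 3 wild-type (WT) clones. All came from 1 parental 129/SVj line (129 derived in the labels) that carries an Oct4:IRES:EGFP reporter and grows without feeders on gelatin with LIF, a cytokine that keeps ESCs undifferentiated. The knockouts carry insertions or deletions made with Cas9 and guide RNAs, mostly short ones. For Tet2 in both Tet2-/- clones and for Tet3 in both TKO clones a single allele was located by sequencing the edited site, so the other may hold a larger deletion, and in 1 DKO clone 1 Tet1 allele lacks the whole stretch shown. In 3 clones, 1 DKO and both TKO, title and genotype label contradict each other, and groups follow the title. Since the lists give 1 value per genotype comparison, no value could be given without these clones.

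The values are 5 lists of single CpGs, 4 of a knockout against WT and 1 of Tet2-/- against Tet1-/-. Each entry gives the authors' difference in methylation in percentage points (points below), where a positive difference is higher methylation in the first genotype. The lists hold from 4133 to 8001 entries, with absolute differences of 25.0024 points or more. They give no level, read depth or value of a single clone, so no spread between clones, interval or test can be given, and every result below describes the clones of a genotype jointly. A CpG that is not listed may be unchanged or changed by less than the minimum. It may also have failed the authors' significance limit (q-value) despite a larger difference, or have been read too little or not at all. These cases cannot be told apart. The 4 lists against WT share the same WT clones and are not independent of each other, and the list of Tet2-/- against Tet1-/- shares its clones with 2 of them. Bisulfite treatment does not separate 5-hydroxymethylcytosine, the product of the Tet enzymes, from 5-methylcytosine. The ESC identity of the clones cannot be checked from these lists.

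Methylation of CpGs is set by 2 opposing groups of proteins. Dnmt3a and Dnmt3b are de novo DNA methyltransferases, Dnmt3l is a cofactor without catalytic activity of its own, and Dnmt1 copies methylation to the new strand after replication, guided by Uhrf1, which binds hemimethylated CpGs. The Tet enzymes oxidise 5-methylcytosine, and Tdg, a DNA glycosylase, excises the more oxidised bases so that repair restores cytosine. Tet1 and Tet2 are the main Tet enzymes of ESCs, while Tet3 is best known from the oocyte and zygote.

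Members were assigned by the gene name in each entry, except for DKO, where the annotation is out of the order of the coordinates and CpGs within a gene or 50 kb of it were taken. This gave 20 of 31671 entries, 17 higher and 3 lower, at 5 members: Tet1, Tet2, Dnmt3a, Dnmt3b and, through the 50 kb distance, Dnmt1. By coordinates (mm9, GENCODE vM1), 21 entries at 12 different CpGs lay inside a member, 18 higher and 3 lower, in Tet1, Tet2, Tet3, Dnmt3a and Dnmt3b. The names and the coordinates disagreed for part of the genes. Of the 17 entries inside a member in the other 4 lists, 5 carried the name of another gene, and of the 15 entries that carried a member's name, 3 lay outside that member.

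The 3 guide target sites are printed first because they mark the place of each knockout and the listed CpGs are set against them. Each is the 20-base site in lower case with its PAM, the motif Cas9 needs, in capitals, read 5′ to 3′ along the minus strand of mm9. The Tet1 site is chr10:62296296-62296315, the Tet2 site chr3:133148620-133148639 and the Tet3 site chr6:83329888-83329907, and all 3 lie in coding exons.
Tet1 guide target: ggctgctgtcagggagctcaTGG
Tet2 guide target: gaaagtgccaacagatatccAGG
Tet3 guide target: aaggaggggaagagttctcgAGG

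The 12 listed CpGs inside members were 8 in coding exons and 4 in introns. Their sequences are shown because they are the listed CpGs inside the machinery genes themselves. Each line is the forward strand of mm9, 5′ to 3′, with 14 bases on either side of the CpG, which is in capitals, and the name gives the position of the forward cytosine.
Tet1 exon 1, 62342565: ctcggcgccggtgtCGgggttttgtcttcc
Tet1 exon 1, 62342580: ggggttttgtcttcCGtttccttcttacca
Tet1 exon 5, 62295687: ttcccttccttcccCGtgaacactatcttc
Tet1 exon 12, 62275402: tgataaattggcttCGggggatacatcagg
Tet2 exon 3, 133149160: aaagcaccggtgaaCGtcctgatttggggt
Tet2 exon 3, 133149229: ggtcttacttcctaCGggatgtagagcttg
Tet3 exon 11, 83318791: tccacctttcagggCGgggttgaaatcccc
Tet3 intron 3, 83365169: cacccacgcacacaCGttctgaagattcta
Tet3 intron 3, 83365332: agaaggaaaacacaCGcaagccctactttt
Dnmt3a exon 23, 3907719: ccacctcttcgctcCGctgaaggaatattt
Dnmt3b intron 17, 153502625: tctctcttatccctCGggctttttccggtc
Dnmt3b intron 19, 153503915: ataattcagccttaCGtgaccgagctgtct

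**Figure D1:**
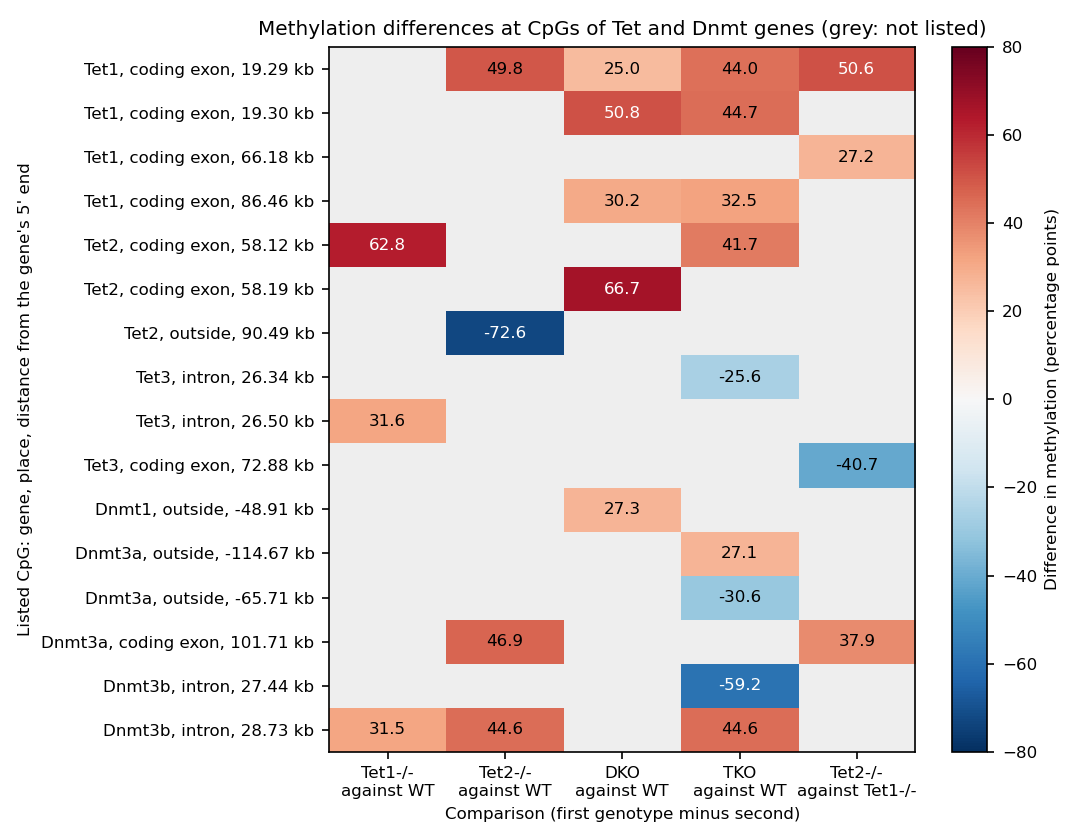
Difference in methylation (percentage points, colour and printed value) at each CpG inside a member or assigned to one by the rule (rows: gene, place and distance from the 5′ end of the gene), in each of the 5 comparisons (columns, first genotype minus second). Grey cells are not listed. Tet1 fills 9 cells, all higher, and the 2 lower cells with the largest differences are the CpG past the end of Tet2 in Tet2-/- (-72.6 points) and the intron CpG of Dnmt3b in TKO (-59.2 points).

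Tet1, the 5-methylcytosine dioxygenase gene on chromosome 10 (62267318 to 62361866, minus strand, 94549 bp), had the most listed CpGs of the 9 genes: 4 CpGs with 9 entries, all higher and all in coding exons. It had no entry for Tet1-/- against WT. The CpG at 62342580 lies in exon 1 of the deposited transcript, 182 bp downstream of a transcription start site (TSS). This TSS is inside the gene. The CpG lies 19286 bp from the 5′ end of Tet1, and no listed CpG of Tet1 was closer to that end. The CpG had 49.8 points in Tet2-/- against WT. Among the 6888 entries of that list, 22.0% were at least as large. The same CpG had 44.0 points in TKO against WT, while its 25.0048 points in DKO against WT were the smallest value of that list, ranking 7078 of 7078. The CpG at 62342565, 15 bp away and 197 bp from the TSS, was higher by 50.8 points in DKO than in WT, and by 44.7 points in TKO than in WT. So both CpGs were listed for DKO and TKO, and within DKO the 2 neighbours differed from each other by more than they did within TKO. Both lie between the same pair of MspI sites (the enzyme of RRBS), 62342565 at 6 bp and 62342580 at 21 bp from the site on the left. Tet2-/- minus Tet1-/- was 50.6 points at 62342580, from the reverse strand, beside the 49.8 points of Tet2-/- against WT.

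The other CpGs of Tet1 lay far from that internal TSS and carried the name of Ccar1, a neighbouring gene, where a name could be read. In exon 12 of 12, the CpG at 62275402 was higher by 30.2 points in DKO than in WT and by 32.5 points in TKO than in WT, which is in the lower part of both lists: 76.1% of DKO entries and 64.5% of TKO entries were at least as large. It lies 67360 bp from the TSS and 20903 bp from the centre of the Tet1 guide site. In exon 5, the CpG at 62295687 was listed for Tet2-/- against Tet1-/- alone, with 27.2 points, and lies 618 bp from the guide site. Tet1-/- clones carry the edit at that site and Tet2-/- clones do not. Of the 4 CpGs of Tet1 this is the nearest to the edited sequence, and it was not listed in any comparison against WT. Its value came from the reverse strand. The 4 lists against WT hold no reverse-strand entries, while 2036 of the 4133 entries of Tet2-/- against Tet1-/- are on that strand. The part of this difference between the lists was not tested.

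Tet2, the dioxygenase gene on chromosome 3 (133126643 to 133207354, minus strand, 80712 bp), had 2 listed CpGs, both in exon 3, the exon of its guide site. The CpG at 133149229 had 62.8 points in Tet1-/- against WT, rank 161 of 5571, with 2.89% of the list at least as large. It had 41.7 points in TKO against WT, where 36.8% of the list was at least as large. The CpG at 133149160, 69 bp away, was listed for DKO against WT alone, with 66.7 points and 7.33% of the list at least as large. These CpGs lie 600 and 531 bp from the centre of the guide site. No CpG inside Tet2 was listed for Tet2-/- against WT or for Tet2-/- against Tet1-/-. The part of a larger deletion on the allele not located in these clones was not tested. The entry named Tet2 in Tet2-/- against WT was at 133116868, 9775 bp past the 3′ end of the gene and outside any gene, and was lower by 72.6 points (difference -72.6 points, rank 299, with 4.34% of the list at least as large). Its sequence is shown because it holds the largest difference of any CpG assigned to a member.
Past the end of Tet2, 133116868: actgtgtatgaagaCGtctctggacccatt

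Tet3, the third dioxygenase gene, on chromosome 6 (83312367 to 83391672, minus strand, 79306 bp), had no entry under its own name, but 3 CpGs lay inside it. Their entries were named for Mir6374 and Bola3, which the deposited annotation gives as the genes with the nearest start. In intron 3, the CpG at 83365169 had 31.6 points in Tet1-/- against WT and the CpG at 83365332, 163 bp away, had -25.6 points in TKO against WT. Neither was listed in a second comparison, and 96.9% of TKO entries were at least as large as the difference in TKO, which makes it 1 of the smaller values of that list. In the last coding exon, exon 11 of 11, the CpG at 83318791 had -40.7 points in Tet2-/- against Tet1-/-, so methylation there was lower in Tet2-/- than in Tet1-/-. It lies 11106 bp from the Tet3 guide site, which was used in TKO clones, and was not listed for TKO.

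**Figure D2:**
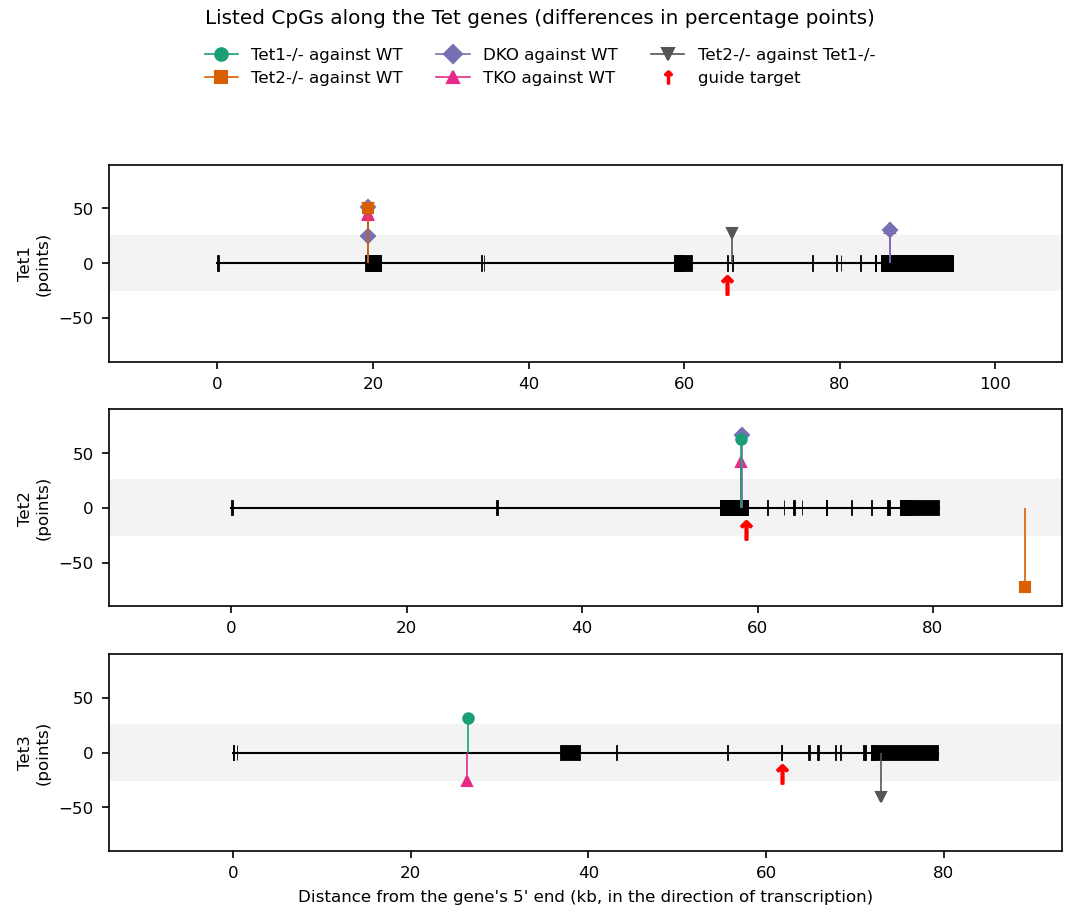
Listed CpGs along Tet1, Tet2 and Tet3, with distance from the 5′ end of the gene in kb on the horizontal axis, the difference in percentage points on the vertical axis, exons as black boxes and the guide target as a red arrow. The grey band marks absolute differences too small to be listed. Markers overlap at exon 1 of Tet1, where 2 CpGs lie 15 bp apart, and at exon 12, where DKO (30.2 points) covers TKO (32.5 points).

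Dnmt3a, a de novo methyltransferase gene on chromosome 12 (3806007 to 3914443, plus strand, 108437 bp), had 1 listed CpG inside it, at 3907719 in exon 23 of 23. Its difference was 46.9 points in Tet2-/- against WT and 37.9 points in Tet2-/- against Tet1-/-. Tet2-/- against WT minus Tet2-/- against Tet1-/- was 8.96 points here. It was -0.81 points at the Tet1 exon 1 CpG 62342580 and 1.13 points at 3931049, a CpG past the end of Dnmt3a. At those CpGs the value against Tet1-/- came from the reverse strand, and here it did not. The 2 TKO entries that carried the name Dnmt3a lay 114667 and 65708 bp upstream, both inside introns of Dtnb, a dystrobrevin gene: 27.1 points at 3691340, in an LTR of the ERVK class, and -30.6 points at 3740299. Their mean of -1.71 points therefore describes neither of them. Beyond the 3′ end, 2 CpGs 16596 and 16606 bp past the gene and named for Pomc lay in a B2-type SINE. The first, at 3931039, had 26.9 points in Tet2-/- and the same value in Tet1-/- against WT, and the second, at 3931049, had 28.6 points in Tet2-/- against WT and 27.4 points in Tet2-/- against Tet1-/-. All of these are in the lower part of their lists, with 82.6 to 90.5% of entries at least as large.

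Dnmt3b, the de novo methyltransferase gene on chromosome 2 (153475186 to 153513466, plus strand, 38281 bp), had 2 listed CpGs 1290 bp apart. Both lie in introns, 27439 and 28729 bp from its 5′ end, and they had opposite signs in TKO. The CpG at 153502625 in intron 17 had -59.2 points in TKO against WT, with 10.6% of the list at least as large, and was not listed elsewhere. The CpG at 153503915 in intron 19 had 31.5 points in Tet1-/-, 44.6 points in Tet2-/- and 44.6 points in TKO against WT. It was the single CpG inside a member that was listed for both single knockouts against WT, and it was not listed for DKO or for Tet2-/- against Tet1-/-. The Tet2-/- and TKO values were equal to within 1e-06 points. The same holds at 264 of the 1494 CpGs that both lists contain (17.7%). The cause of equal values was not tested.

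Dnmt3l, Dnmt1, Uhrf1 and Tdg had no listed CpG inside them in any of the 5 lists. Near Dnmt1, the maintenance methyltransferase gene on chromosome 9, the rule assigned 1 DKO entry, at 20806227, with 27.3 points. It lies 48910 bp upstream of Dnmt1, at the edge of the 50 kb distance, and 954 bp from the start of Mrpl4. Nearer to Dnmt1, 22026 bp upstream in the intron of S1pr2, a sphingosine phosphate receptor gene, the CpG at 20779343 had 26.7 points in Tet1-/- and 55.3 points in TKO against WT. Beyond it, TKO had -42.4 points at 20801000 and 34.3 points at 20805979, both in SINEs.

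Near Dnmt3l, Tet2-/- had 49.4 and 39.3 points against WT at the CpGs 77475508 and 77475516, 29184 and 29176 bp upstream in an ERVL-class LTR, and TKO had -47.9 points at 77540315, in an intron of Icosl 13948 bp past the gene. Near Uhrf1, Tet2-/- had 35.6 points against WT at 56466764, 3855 bp past the gene in the first intron of Kdm4b, which encodes a histone demethylase. This was the closest listed CpG to any of these 4 genes. TKO had 54.1 points at 56412988 in the intron of Ticam1, 29756 bp upstream of Uhrf1. Near Tdg, 1 CpG was listed, with 33.3 points in Tet2-/- against WT, 49044 bp past the gene in the first intron of Hcfc2. Within 50 kb, the 9 genes had 37 entries in all, 31 higher and 6 lower, and those outside the genes lie mostly in other genes or in repeats.

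**Figure D3:**
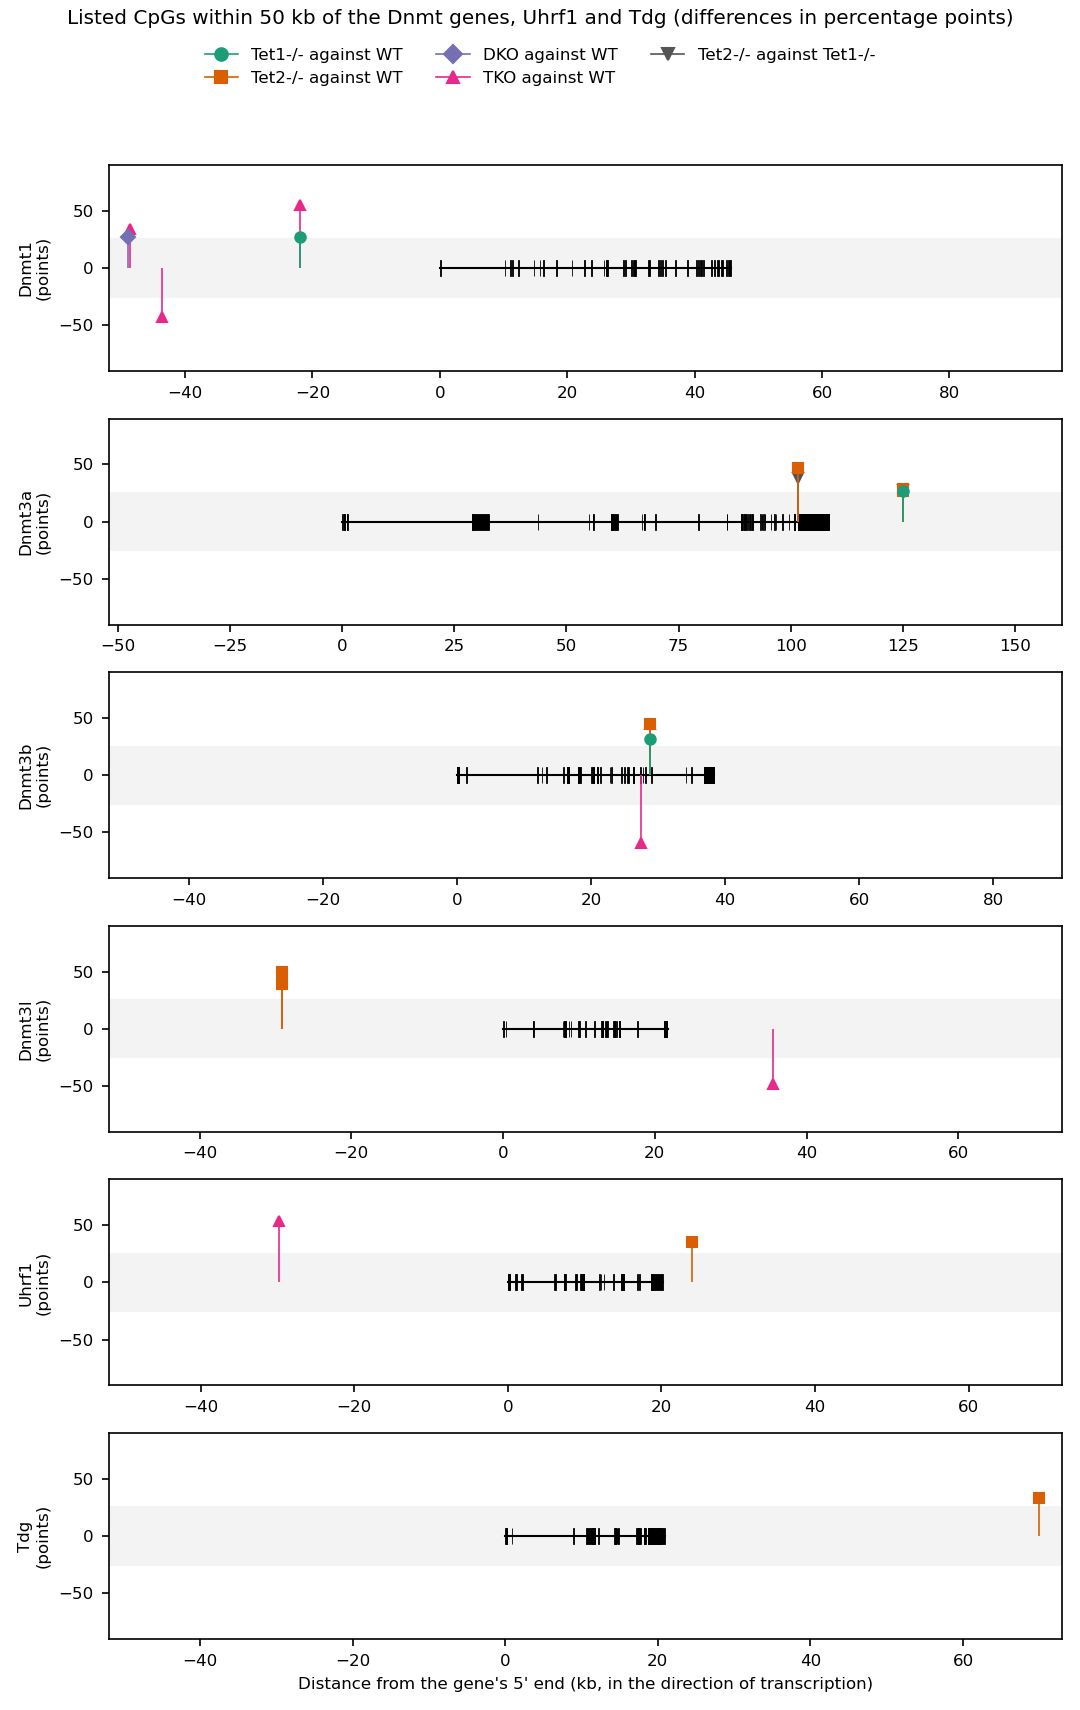
Listed CpGs within 50 kb of Dnmt1, Dnmt3a, Dnmt3b, Dnmt3l, Uhrf1 and Tdg, with distance from the 5′ end in kb on the horizontal axis, the difference in percentage points on the vertical axis and exons as black boxes. The grey band marks absolute differences too small to be listed. Points stand inside the gene for Dnmt3a and Dnmt3b and only outside it for the other genes; at intron 19 of Dnmt3b the Tet2-/- marker covers the TKO marker at the same 44.6 points.

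The counts per comparison were set against all protein-coding genes. For Tet1-/- against WT, 3 of the 9 members had a listed CpG inside the gene (Tet2, Tet3 and Dnmt3b), against 10.4% of all genes. For Tet2-/- against WT, 3 did (Tet1, Dnmt3a and Dnmt3b), against 11.8%. For DKO against WT, 2 did (Tet1 and Tet2), against 12.1%. For TKO against WT, 4 did (Tet1, Tet2, Tet3 and Dnmt3b), against 13.6%. For Tet2-/- against Tet1-/-, 3 did (Tet1, Tet3 and Dnmt3a), against 7.45%. Longer genes have more CpGs that can be listed, and gene length was not matched in these shares of all genes.

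Near a TSS, which for Tet1 was the one inside the gene and not its 5′ end, the count was smaller. Within 2 kb of a TSS, Tet1 was the member with a listed CpG in Tet2-/- (against 3.69% of all genes), in DKO (against 3.71%), in TKO (against 4.32%) and in Tet2-/- against Tet1-/- (against 2.23%), and no member had one in Tet1-/- against WT (against 2.78%). The other 8 genes had no listed CpG within 2 kb of a TSS in any of the 5 lists. The Tet2 exon 3 CpGs fell just past this distance, at 2406 and 2475 bp from a TSS inside Tet2.

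The direction was read against each whole list. By the rule, 2 of 2 member entries were higher in Tet1-/- against WT, where 65.6% of all entries were higher. In Tet2-/- against WT it was 3 of 4, against 77.7%, in DKO 5 of 5, against 64.8%, and in TKO 5 of 7, against 58.6%. In Tet2-/- against Tet1-/- both entries were higher, against 67.0% of the list. Inside the genes, the counts of higher entries were 3 of 3 in Tet1-/-, 3 of 3 in Tet2-/-, 4 of 4 in DKO, 5 of 7 in TKO and 3 of 4 in Tet2-/- against Tet1-/-. Entries of 1 gene share clones and fragments, and with so few of them the shares say no more than that higher entries were the larger number among the members, as in the lists as a whole.

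The surroundings of the 12 CpGs differed. In the 200 bases around it, the exon 1 CpG of Tet1 at 62342565 had 16 CpGs, itself included, and a GC content of 52.0%, and the last-exon CpG of Dnmt3a had 11 CpGs and 49.0%. The Tet2 exon CpGs at 133149160 and 133149229 had 8 and 9 CpGs. The intron CpG of Tet3 at 83365332 had 2 CpGs and 37.1%, and the intron 19 CpG of Dnmt3b had 3 CpGs and 47.0%. The exon 5 and exon 12 CpGs of Tet1 had 7 and 8 CpGs, the intron 17 CpG of Dnmt3b had 6, and the exon CpG of Tet3 at 83318791 had 5 CpGs and a GC content of 59.9%. The other intron CpG of Tet3, at 83365169, had 4. Exon CpGs mostly had more CpGs around them than intron CpGs. The overlap was the Tet3 exon CpG with 5 against the intron 17 CpG of Dnmt3b with 6.

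Whether RRBS could read these genes was asked from the reference sequence. MspI fragments of 40 to 300 bases and reads of 38 bases were predicted to reach 766 CpGs inside the 9 genes, of which 9, or 1.17%, were listed at least once. Across the genome it was 20732 of 1301483, or 1.59%. The predicted number ranged from 15 in Dnmt3l to 275 in Dnmt3a. Dnmt1, Uhrf1 and Tdg had 79, 75 and 39 predicted CpGs and none listed, while Tet2 had 24 and 2 listed. Within 2 kb of a TSS it ranged from 14 (Tet1 and Dnmt3l) to 229 (Dnmt3a), so each member had start-region CpGs within predicted reach. Of the 12 listed CpGs inside members, 3 lay outside the predicted reach (both intron CpGs of Tet3 and 153503915 of Dnmt3b). In the whole genome 91.5% of 22659 different listed CpGs lay within it. The prediction gives no depth in these libraries, and the CpGs that were tested are not part of the lists.

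**Figure D4:**
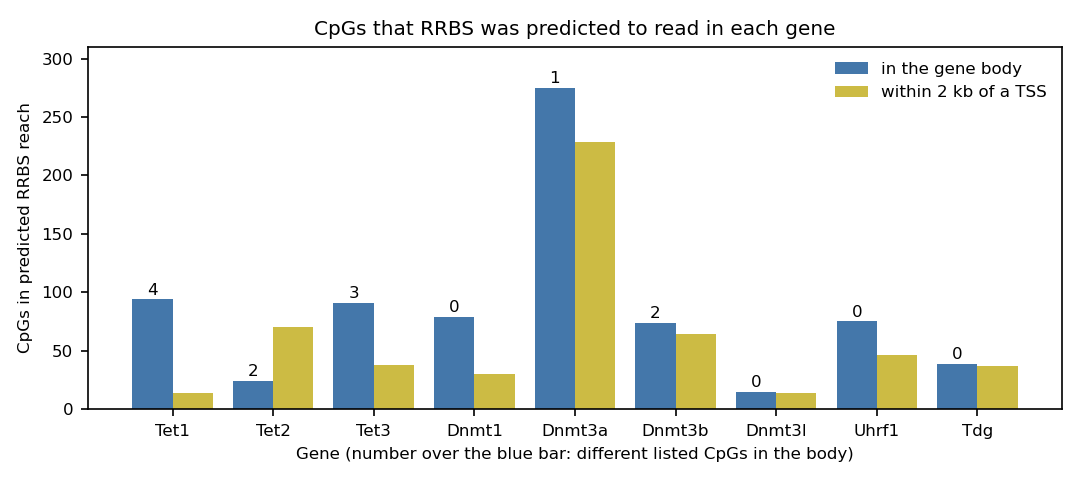
Number of CpGs (vertical axis) predicted to be read by RRBS in each of the 9 genes, inside the gene (blue) and within 2 kb of a TSS (yellow), with the number of different listed CpGs inside the gene printed over the blue bar. Dnmt3a has the most predicted CpGs (275 inside the gene) and 1 listed, and Tet1 has 94 predicted and 4 listed.

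How often names and coordinates disagreed was counted across all genes too. Of the CpGs that lay inside a protein-coding gene, 37.0% in Tet1-/- against WT, 35.5% in Tet2-/- against WT, 36.0% in TKO against WT and 35.3% in Tet2-/- against Tet1-/- carried the name of another gene. Among the members it was 5 of 17 entries. In the DKO list, 3 entries elsewhere in the list carried a member's name, with distances of 182 and 197 bp for Tet1 and 58194 bp for Tet2. Counted from the starts of those genes, these distances gave 62342580, 62342565 and 133149160, the 3 DKO positions already described.

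The 5 genes whose pattern was most like that of Tet1 were sought among the 64 genes with a listed CpG within 2 kb of a TSS in Tet2-/-, DKO and TKO against WT but not in Tet1-/- against WT. Of these, 46 had higher means in all 3 lists. Likeness was the Euclidean distance between the 3 mean differences, which for Tet1 were 49.8 points in Tet2-/-, 37.9 points in DKO and 44.3 points in TKO. The nearest was Kank1 at 8.25 points of distance, followed by Dnaic2 at 10.2, Chtf8 and Cirh1a at 11.2, which share the same CpGs, and Dlg1 at 11.6. Kank1 had means of 43.1, 42.2 and 42.4 points in Tet2-/-, DKO and TKO. With 3 values per gene and shared WT clones, this order is a description.

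Genes that work with the members were counted in 5 wider lists of 63 genes, of which 62 were found in the annotation. A listed CpG within 2 kb of a TSS was found for 2 genes (3.23% of those found) in Tet1-/- against WT, against 2.78% of all genes. It was 4 (6.45%) in Tet2-/- against WT, against 3.69%, and 1 (1.61%) in DKO, against 3.71%. In TKO it was 4 (6.45%), against 4.32%, and in Tet2-/- against Tet1-/- it was 0, against 2.23%. Inside the gene it was 4 genes (6.45% of those found) in Tet1-/-, against 10.4% of all genes, 7 (11.3%) in Tet2-/-, against 11.8%, 7 (11.3%) in DKO, against 12.1%, and 8 (12.9%) in TKO, against 13.6%, each relative to WT. In Tet2-/- against Tet1-/- it was 4 (6.45%), against 7.45% of all genes. Inside the gene the shares were lower than those of all genes, most so in Tet1-/- (6.45% against 10.4%) and slightly in the other lists. Within 2 kb of a TSS they lay on both sides. With counts this small, the shares are a description. Among the 10 Tet partners and cofactor genes found, Sin3a, which encodes a corepressor scaffold known to bind Tet1, was listed in all 4 knockouts. Its intron CpG at 56927121 on chromosome 9, at -1844 bp from a TSS, had 29.4 points in Tet1-/-, 65.0 points in Tet2-/-, 36.1 points in DKO and 65.0 points in TKO against WT. The Tet2-/- and TKO values at 56927121 were equal, at 64.963504 points each, and the 4 lists share the same WT clones. The share of all genes listed in all 4 knockouts is not given here, so this listing is a description. A second Sin3a CpG, at 56922377, had 30.2 points in TKO.

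Among the 15 base excision repair genes, Ung, a uracil glycosylase gene, had 29.4 points in Tet2-/- against WT, and no other gene of the list had a CpG there. Among the 15 maintenance and methyltransferase partners, Zfp57, which protects methylation at imprinted loci, had 29.3 points in Tet2-/-. Of the 9 methyl-CpG readers, Zbtb38 had 44.6 points in Tet1-/- at 96588287 and -56.9 points in Tet2-/- at 96588260 against WT, and Zbtb4 had 45.1 points in TKO. Of the 13 methyl donor genes, Ahcy is described here, with -85.9 points in TKO against WT at -1117 bp from its start. It encodes the enzyme that clears S-adenosylhomocysteine. The Ahcy CpG had the largest absolute difference among all CpGs named here.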

How the data were processed

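RRBS reads of 12 ESC clones were trimmed with Trim Galore 0.5 and aligned to mm9 with Bismark 0.19.1 (submitters' processing notes), and groups of clones were compared with methylKit and the CpGs annotated with HOMER by the authors. The deposited values are the authors' differences in percentage points at CpGs past their minimum read depth, q-value and difference, with a distance to the nearest TSS in bp (a value type other than counts or levels). These columns are the authors' own comparisons and are the sole values of the lists. They have no column per clone, and depth is unknown.

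Members, wider lists and alternatives were chosen with earlier results of these data known. All 9 members with each listed CpG, wider-list genes with a CpG within 2 kb of a TSS and the 5 genes most like Tet1 are named. A wider-list gene that this rule names is not reported here. Reverse-strand positions were moved to the forward cytosine. DKO annotation was out of row order and replaced by coordinates. Positions were placed on GENCODE vM1 genes (NCBIM37, the assembly called mm9), with TSSs of transcripts that have a start codon, using Python 3.11.15, pandas 2.3.3 and pysam 0.24.0. Percentages of genes are over 22238 protein-coding genes. Guide sites were found by exact match. Scripts were tested on simulated data. No statistical test was run.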

Additional observations from a re-analysis of the deposited data

How the results depend on the processing

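The alternatives keep or drop entries whose deposited difference is fixed, so they could change counts and means but not the sign of a CpG. With a minimum of 40 points, listed CpGs, higher CpGs and members with one became 1 each for Tet1-/- against WT (2 each as reported) and 1 each for Tet2-/- against Tet1-/- (2 each), and DKO had 2 CpGs, both higher (5 as reported). With a minimum of 30 points DKO had 3, all higher. With every list taken by position within 50 kb, Tet1-/- had 5 CpGs, 5 higher, at 5 members, Tet2-/- had 10, 9 higher, at 7 members (4, 3 and 4 as reported), TKO had 12, 8 higher, at 7 members (7, 5 and 4), and Tet2-/- against Tet1-/- had 5, 4 higher. Within 2 kb of the genes that comparison had 4 CpGs. With DKO gene names as deposited, 3 CpGs were found. The counts rest on which CpGs lie inside the wider distance or past the higher minimum. Many means per member and list rest on 1 CpG and could not move under the higher minimums. The mean of Dnmt3a in TKO was -1.71 points as reported and -30.6 points with a minimum of 30 points, where 1 of its 2 CpGs was left.

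No paired analysis was possible because the lists give no value per clone. Leaving out clones was not run for the same reason. Read depth is unknown, and a CpG that is not listed is not shown to be unchanged.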
